A study of Mus musculus with 10 samples.

Results

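Six2-GFP-positive cells taken from mouse embryos at E11.5 and cultured for 8 days were compared with Six2-GFP-negative cells taken at birth (P0), across every gene that the arrays could measure. The rule took the arrays by their titles, 2 of the 8-day culture and 2 of the P0 non-progenitors, which is 4 of the 10 arrays of the series. All groups came from Six2-GFP transgenic mice on a C57BL6J/ICR background, so the P0 non-progenitors carried the transgene too. For the 8-day culture, GFP-positive cells were sorted at E11.5 by flow cytometry and then kept in conditioned media for 8 days. The P0 non-progenitors are what the same kind of sort left as GFP-negative at P0, with no culture. Age, culture, cell origin and the GFP gate all differ between the groups and cannot be told apart. The other arrays, 2 each of E11.5 progenitors, the 19-day culture and P0 progenitors, entered the fit to estimate the spread. The newborn samples are P0 in the labels and E19.5 in the deposited file names. The labels leave unsaid whether replicates are separate litters or cultures, and whether cultured cells were sorted again. P-values therefore measure the spread between these samples, which may be technical in some groups. The 2 P0 non-progenitor arrays differed in genes of the Y chromosome, as given at the end.

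Six2 is a transcription factor that holds the nephron progenitors of the cap mesenchyme, the cells that surround the tips of the ureteric bud, in an undifferentiated state. When these cells are induced they form the pretubular aggregate and the renal vesicle, and then the epithelium of the glomerulus, the proximal tubule, the loop of Henle and the distal tubule. The cells of a newborn kidney that lack Six2 are those differentiated tubules together with collecting duct, stroma, blood vessels and blood cells. The labels name the tissue as embryo, without an organ. Genes that define kidney segments were well above background on both P0 non-progenitor arrays, among them Umod of the thick ascending limb, Slc34a1 of the proximal tubule and Aqp2 of the collecting duct.

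The comparison was asymmetric. Of 26253 genes tested, among 34607 gene names on the array, 3454 passed an adjusted p of 0.05 in limma (13.2% of the genes tested). The 8-day culture was higher at 2007 of them (7.64% of the genes tested) and lower at 1447 (5.51%). Each count of a gene list below is to be read against these shares. Falls were larger than rises in the signals as read. The median log2 change was 1.02 among the genes called higher and -3.45 among those called lower, against 0.247 over all genes tested. A change of more than 4-fold was reached by 359 of the genes called higher and by 1166 of those called lower. Small rises were called mostly at bright probes, and 52.7% of the genes called higher belonged to the tenth of genes with the highest level. When limma tested for a change of at least 1 log2 unit, 110 genes were higher and 581 lower. The share of calls that were higher was 58.1%, and 40.4% under quantile normalization. All 3454 called genes had groups that did not overlap, as did 57.1% of all genes tested. A called gene was not well above background on either 8-day array in 568 cases and on either P0 non-progenitor array in 96 cases. For those genes a fold is given as a lower bound, with each dim array set no lower than its own lowest signal that was well above background. Where a probe passed the background test on 1 array of a group, the fold is as read and poorly measured. The medians and the counts of changes over 4-fold do not use these bounds. They use the signals as read, which are poorly measured at background.

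**Figure D1:**
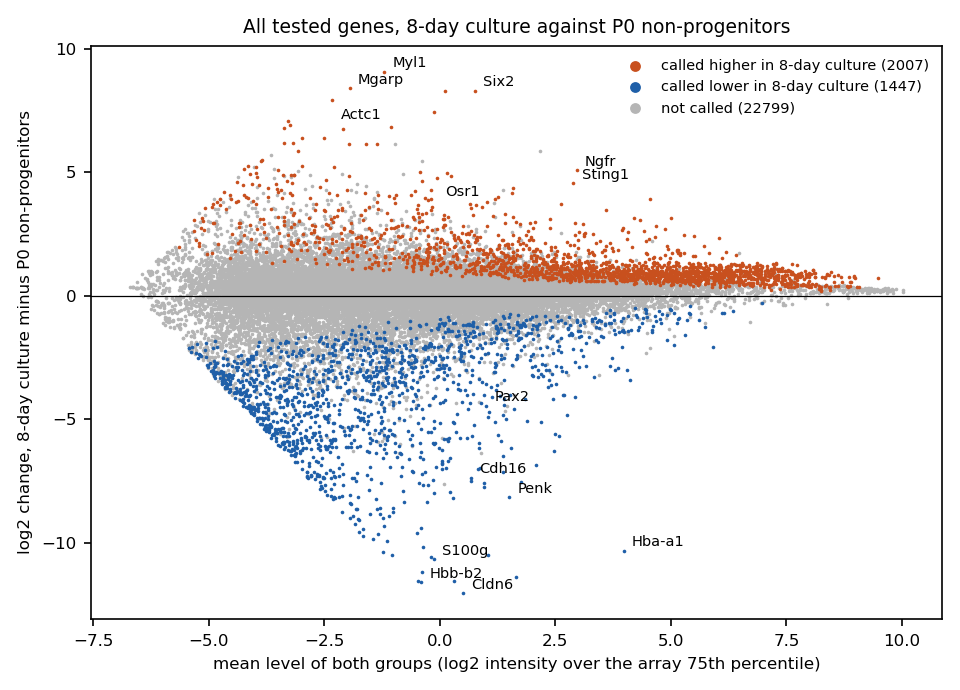
Log2 change between the 8-day culture and the P0 non-progenitors (vertical axis) against the mean log2 level of the 4 arrays (horizontal axis, log2 intensity over the array's 75th percentile), 1 point for each of 26253 genes, coloured by the limma call at an adjusted p of 0.05. Called rises (2007) crowd at bright probes with small changes, and called falls (1447) reach below -10.

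Of 59305 non-control spots on an array, 60.4% and 67.5% were well above background in the 8-day culture, and 65.5% and 69.0% in the P0 non-progenitors. The number of arrays limits the precision. Over all tested genes the root mean square log2 difference was 1.58 to 1.62 between arrays of the 2 groups, against 1.08 within the 8-day culture and 0.905 within the P0 non-progenitors. The 8-day replicates lay on different slides, and replicate 1 shared its slide with all freshly sorted cells. A fit to the arrays of that slide alone, which leaves 1 array of the 8-day culture, called 1338 genes higher and 1068 lower.

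Transcription factors of the progenitor state did not move together. Levels are given as log2 intensity relative to the array's own 75th percentile. Six2 had levels of 5.21 and 4.61 in the 8-day culture, against -2.26 and -4.55 in the P0 non-progenitors. All its 3 probes were higher in culture, and the change was 8.31 ± 0.71 (log2, SE, 2 arrays a group, limma adjusted p = 0.000557). The probe used passed the background test on only 1 of the 2 P0 non-progenitor arrays, so the low level is poorly measured. Since GFP follows Six2 and the P0 non-progenitors were gated as GFP-negative, this difference checks the labels and is no finding. Osr1, which acts upstream in the intermediate mesoderm that gives rise to the kidney, had levels of 2.85 and 1.80 in the 8-day culture and -2.76 and -2.16 in the P0 non-progenitors, a 27.6-fold rise (adjusted p = 0.00483). Meox2, a homeobox factor of embryonic mesoderm, reached 0.444 and 0.211 in the 8-day culture and was not well above background in the P0 non-progenitors, and was at least 37.6-fold higher (adjusted p = 0.000781).

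Pax2 ran the other way. This factor is required for the nephron lineage and is also active in the ureteric bud and in young tubules. Its levels were -1.40 and -1.04 in the 8-day culture, against 3.4 and 3.05 in the P0 non-progenitors, with no overlap at any of its 3 probes. The probe tested fell by 4.44 ± 0.23 on the log2 scale, 21.8-fold (adjusted p = 0.00011). In the freshly sorted E11.5 progenitors the same probe read 4.56 and 4.21, and in the 19-day culture -1.25 and -1.21, so the low level was shared by all 4 cultured arrays. Meox1, the paralogue of Meox2, fell by 2.93 on the log2 scale (adjusted p = 0.004935). Of the 26 progenitor genes, all tested, 3 rose (Six2, Meox2 and Osr1) and 2 fell, with a median log2 change of 0.849. Over all genes tested 7.64% were higher and 5.51% lower, so these counts are no result about the list as a whole. The number of rises was 6 without 8-day replicate 1 and 7 without the 19-day culture arrays.

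The other core factors did not pass the test. Cited1, which marks the least induced progenitors, had levels of 0.562 and 1.68 in the 8-day culture and 1.33 and 0.446 in the P0 non-progenitors, and the groups overlapped. Its P0 progenitor arrays read 6.03 and 5.53. Wt1, a zinc finger factor of progenitors and podocytes, read 5.30 and 4.61 in the 8-day culture and 4.31 and 4.78 in the P0 non-progenitors. Sall1 read 1.71 and 2.09 in the 8-day culture and 1.58 and 1.91 in the P0 non-progenitors. For Wt1 the log2 difference was 0.41 ± 0.24 and for Sall1 0.15 ± 0.72, so the second leaves room for a change of severalfold. These SEs draw on all 5 groups, while the Sall1 replicates lay close in the 2 groups compared. Eya1, the phosphatase and cofactor of Six2, is measured by 1 probe that stayed between 9.24 and 9.74 on these 4 arrays and between 9.29 and 9.68 on the other arrays, so its probe was nearly flat over all groups.

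**Figure D2:**
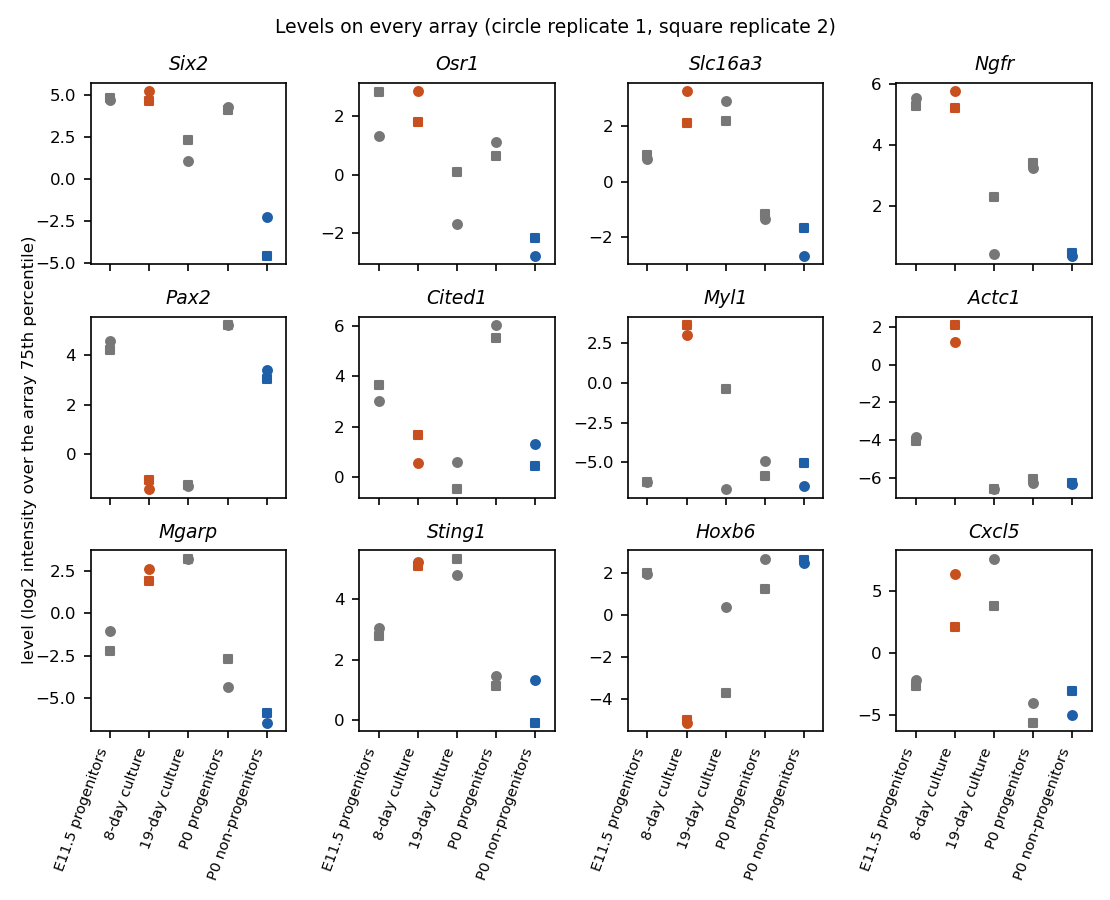
Levels of 12 named genes (log2 intensity over the array's 75th percentile, vertical axes) on every array, by group, with the 8-day culture in orange and the P0 non-progenitors in blue. Six2, Osr1 and Ngfr in the 8-day culture sit near the E11.5 progenitors, Pax2 and Hoxb6 lie below all freshly sorted cells, and Myl1 and Actc1 stand above every other group.

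Of 18 genes of the pretubular aggregate and renal vesicle, 5 fell and 1 rose, and the median log2 change was -1.75. Ccnd1, which encodes cyclin D1, fell 20.3-fold. Jag1, a Notch ligand of the renal vesicle, read -1.07 and -0.794 in the 8-day culture and 3.11 and 3.23 in the P0 non-progenitors and fell 17.2-fold. Papss2 and Hey1 also fell, 59.2-fold and 3.87-fold, and the call of Papss2 was lost without P0 non-progenitor replicate 1. Sox11, the single member that rose, had levels of 4.93 and 5.62 in the 8-day culture and 2.74 and 2.49 in the P0 non-progenitors (log2 change 2.66 ± 0.26, adjusted p = 0.00093). Wnt4 and Lhx1, which act in the change of mesenchyme to epithelium, did not pass. Wnt4 read -0.226 and 1.15 in the 8-day culture and 1.31 and 1.37 in the P0 non-progenitors, and Pax8 read 1.20 and -1.75 in the 8-day culture and 1.23 and 1.67 in the P0 non-progenitors.

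Tubule genes were broadly lower than in the P0 non-progenitors, which need not be a loss in culture. Over proximal tubule genes the mean level was -3.61 and -3.83 in the E11.5 progenitors and -3.88 and -4.02 in the 8-day culture. Over loop and distal tubule genes it was -4.10 and -4.60 in the E11.5 progenitors and -4.14 and -3.85 in the 8-day culture. In bulk samples, fewer cells of a type and less RNA per cell cannot be told apart, which holds for every cell type list here. List medians use the signals as read, also for genes at background, so their size depends on the background correction. Under another correction (normexp, offset 50), medians were -3.02 for proximal tubule and -2.31 for loop genes, with 18 and 12 lower. They were -2.16 for collecting duct and -3.05 for endothelial genes, with 16 lower in each. Of 20 proximal tubule genes tested (21 listed), 18 fell and none rose, with a median of -5.85. Lrp2, the endocytic receptor megalin, read -6.27 and -6.54 in the 8-day culture, not well above background, and 4.16 and 3.76 in the P0 non-progenitors, and was at least 316-fold lower (adjusted p = 0.000638). Aqp1, a water channel, was at least 378-fold lower, and Spp2 at least 538-fold. The phosphate transporter Slc34a1 was well above background on 1 of the 8-day arrays, with levels of -4.34 and -3.24 in the 8-day culture against 4.23 and 4.53 in the P0 non-progenitors, and fell 287.5-fold. Slc5a2, a glucose transporter, was not called, with a log2 change of -0.34.

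Among genes of the loop of Henle and distal tubule, 11 of 19 fell and none rose (median -5.38). The steepest were S100g, an intracellular calcium-binding protein, at least 751-fold lower, Umod, which encodes uromodulin, at least 375.5-fold lower, and Tfap2b, at least 287-fold lower. Mal, a membrane protein of apical sorting, was at least 227-fold lower. Of 20 genes of the ureteric bud and collecting duct, 16 fell and none rose (median -4.30). Tfcp2l1, a transcription factor of the collecting duct, read -5.60 and -5.36 in the 8-day culture, not well above background, and 5.26 and 4.94 in the P0 non-progenitors, and was at least 697-fold lower (adjusted p = 6.44e-05). Scnn1g, a subunit of the epithelial sodium channel, was at least 96.2-fold lower, and the keratin Krt8 at least 107-fold. Aqp3 remained well above background on both 8-day arrays, at -3.26 and -3.09 against 3.80 and 3.26 in the P0 non-progenitors, a 104-fold fall. Wnt11, a signal of the bud tip, was not called, at -0.43 ± 0.26. With any one array left out, 12 to 15 proximal tubule genes, 11 or 12 loop genes and 11 to 13 collecting duct genes were called lower.

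Podocyte genes were lower in part. Of 15 tested, 8 fell and none rose (median -2.45). Podxl, a surface glycoprotein of the podocyte, was at least 72.4-fold lower. The phosphatase Ptpro read -4.56 and -3.98 in the 8-day culture and 2.58 and 2.71 in the P0 non-progenitors and fell 121-fold (adjusted p = 0.00219), and Col4a3, of the glomerular basement membrane, fell 58.4-fold. Nphs1, which encodes nephrin, did not pass, with a log2 change of -1.36 ± 0.37. Markers of epithelial junctions moved the same way, with 12 of 18 lower, none higher and a median of -3.24. Cdh1 (E-cadherin) was at least 11.1-fold lower. Epcam read -4.84 and -3.14 in the 8-day culture and 2.96 and 3.49 in the P0 non-progenitors and fell 148.5-fold. Cdh16, the kidney-specific cadherin, fell 164-fold. Ptpro and Epcam on 8-day replicate 1 lay below -4.06, the lowest signal well above background there, so both folds are poorly measured. Among all tested claudins, the strand proteins of tight junctions, 12 of 21 fell and none rose. Cldn6 had the largest bound of all named genes, at least 1855-fold lower, with levels of -5.28 and -5.76 in the 8-day culture and 6.78 and 6.24 in the P0 non-progenitors. Of mesenchymal genes, Cdh2 (N-cadherin) had a log2 rise of 3.07 ± 0.20 and Prrx1 rose 16.9-fold, while 11 of 13, including Vim and Fn1, were not called. The call of Prrx1 was lost without either 8-day replicate.

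**Figure D3:**
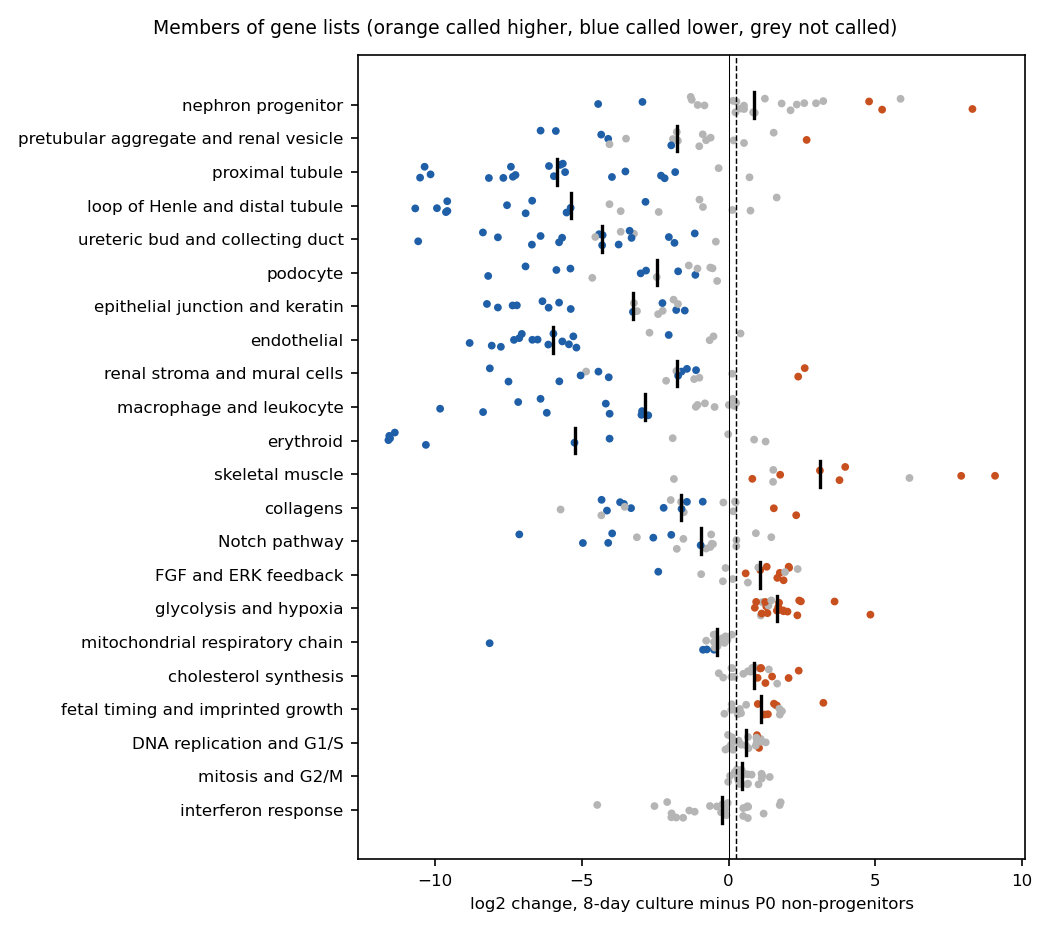
Log2 change between the 8-day culture and the P0 non-progenitors (horizontal axis) for the tested members of 22 gene lists, with a black bar at each list's median and a dashed line at the median of all genes tested (0.247). Tubule, junction and endothelial lists have medians from -5.97 to -3.24, and the glycolysis and skeletal muscle lists have medians of 1.66 and 3.11.

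Blood vessel, blood and stromal genes were lower as well. Of 19 endothelial genes, 15 fell and none rose (median -5.97). Their mean level was -3.61 and -3.88 in the E11.5 progenitors and -3.63 and -3.80 in the 8-day culture. Cdh5, the cadherin of endothelial junctions, read -4.98 and -6.43 in the 8-day culture, not well above background, and 3.43 and 2.81 in the P0 non-progenitors, and was at least 177-fold lower (adjusted p = 0.00032). Cd93 fell 217-fold and the receptor Tie1 at least 61.7-fold. Kdr, a receptor for Vegfa, was not called through its brighter probe, at 2.22 and 2.38 in the 8-day culture and 2.64 and 2.99 in the P0 non-progenitors. Its other probe was not well above background in the 8-day culture and read 0.746 and 1.03 in the P0 non-progenitors. The probes of Vwf and Plvap also disagreed. The tested probes changed by 0.41 (Vwf) and -0.64 (Plvap) on the log2 scale, the others by -2.77 and -6.43. In the P0 non-progenitors those other probes were the brighter ones.

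Of 18 macrophage and leukocyte genes, 10 fell and none rose (median -2.84), a count that was 4 or 5 with any one of the 4 arrays left out. S100a9, carried by neutrophils, was at least 227-fold lower and Tyrobp, an adaptor of myeloid receptors, at least 215-fold. C1qc, of the complement system, was at least 21.3-fold lower, a call that was lost whichever of the 4 arrays was left out. The tested probe of Csf1r, the receptor of macrophage growth factors, was flat at 3.94 and 4.11 in the 8-day culture and 3.78 and 3.87 in the P0 non-progenitors. Another of its probes read -1.99 and -1.91 in the 8-day culture and 0.394 and 0.973 in the P0 non-progenitors. Of 11 erythroid genes tested, 7 fell. Hba-a1 read -2.10 and -0.265 in the 8-day culture and 9.271 and 8.996 in the P0 non-progenitors, a 1273-fold fall (adjusted p = 0.000307). Hbb-b1, Hbb-b2 and Hbb-bt were at least 1369-fold, 851-fold and 803-fold lower, and because globin copies are nearly identical, their probes may share targets. The embryonic globins Hbb-y and Hba-x were not called.

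Stromal and mural genes split. Of 18, 10 fell and 2 rose (median -1.75). Penk, expressed by medullary stroma, read -3.134 and -2.001 in the 8-day culture and 5.64 and 5.50 in the P0 non-progenitors and fell 281-fold. Ren1, the renin of the juxtaglomerular cells, fell 181-fold (adjusted p = 0.000398). Foxd1, the factor that defines the stromal lineage, read -6.16 and -2.63 in the 8-day culture and 1.20 and 1.55 in the P0 non-progenitors and fell 54.5-fold. The 8-day replicates differed at Foxd1 by more than 3 log2 units. On 8-day replicate 1 Foxd1 lay below -4.06, the lowest signal well above background there, so its fold is poorly measured. Lum was at least 8.25-fold lower. Aldh1a2, which makes retinoic acid, read 5.68 and 5.06 in the 8-day culture and 2.87 and 2.68 in the P0 non-progenitors (6.04-fold higher, adjusted p = 0.000788), and Meis1 rose 5.18-fold. Meis1 lost its call whichever of the 4 arrays was left out, and Foxd1 without 8-day replicate 1 or either P0 non-progenitor replicate. The count of falls was 6 without P0 non-progenitor replicate 1.

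Among the remaining largest falls were genes of secretion and transport. Cltrn, a membrane partner of amino acid transporters in the proximal tubule, was at least 750-fold lower. Spink1, a trypsin inhibitor, read -2.38 and -3.26 in the 8-day culture and 4.91 and 4.59 in the P0 non-progenitors and fell 190.5-fold. The whey acidic protein family member Wfdc2 fell 129-fold, Tmem174 128-fold and Cldn11 142-fold. Ly6a and Ly6c1, lymphocyte antigen family members, fell 126-fold and 187-fold, and Gimap4, of a GTPase family of lymphocytes, fell 127-fold. Ly6c1 was the least even of these, at -0.909 and -3.12 in the 8-day culture and 5.61 and 5.46 in the P0 non-progenitors.

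The largest rises among genes well above background on all 4 arrays were led by Ngfr, the low-affinity neurotrophin receptor. It read 5.78 and 5.23 in the 8-day culture, against 0.381 and 0.464 in the P0 non-progenitors, a 33.9-fold rise (log2 change 5.08 ± 0.53, limma adjusted p = 0.00115). The E11.5 progenitors read 5.56 and 5.31, between the 8-day arrays.

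Slc16a3, a lactate exporter, read 3.24 and 2.10 in the 8-day culture and -2.66 and -1.68 in the P0 non-progenitors (28.6-fold, adjusted p = 0.000907). Sting1, an innate immune sensor of cyclic dinucleotides, read 5.24 and 5.09 in the 8-day culture and 1.33 and -0.109 in the P0 non-progenitors (23.5-fold). Scd1, a desaturase of fatty acids, rose 20.7-fold, Bcl3, a regulator of NF-kappaB, 18.9-fold, and Hif3a, of the hypoxia-inducible factor family, 18.1-fold, with all its 3 probes higher. Ebf3 and Zbtb16, both transcription factors, rose 16.8-fold and 16.5-fold, and Sobp 15.9-fold. Sobp read 3.46 and 3.05 in the 8-day culture and -1.82 and 0.339 in the P0 non-progenitors. Of genes at background in the P0 non-progenitors, Mgarp, a mitochondrial protein, read 2.61 and 1.89 in the 8-day culture and was at least 190-fold higher (adjusted p = 0.000392). Nell1, a secreted glycoprotein, was at least 115-fold higher. It read 2.29 and 2.83 in the E11.5 progenitors and 3.12 and 3.24 in the P0 progenitors, but -6.68 and -2.50 in the 19-day culture. Ebf3 lost its call whichever of the 4 arrays was left out, and Zbtb16, Sobp, Hif3a and Nell1 each without 2 or 3 of them.

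Skeletal muscle genes were among the strongest rises. Of 11 tested, with 4 more too dim to test (Myf5, Pax7, Chrna1 and Ckm), 7 rose and none fell, with a median of 3.11. Myl1, a myosin light chain, read 3.03 and 3.65 in the 8-day culture and was not well above background in the P0 non-progenitors, and was at least 345-fold higher (log2 change 9.08 ± 1.73, adjusted p = 0.0135). Actc1, the cardiac actin that embryonic skeletal muscle also uses, read 1.17 and 2.10 in the 8-day culture and was at least 124-fold higher (adjusted p = 0.000114). Tnnc2, a troponin of fast fibres, rose 15.7-fold and the intermediate filament Des 13.7-fold. Both 8-day arrays were high at each of these genes. The embryonic myosin Myh3 read 2.08 and 2.15 in the 8-day culture and -4.26 and -3.83 in the P0 non-progenitors but did not pass, with an adjusted p of 0.0783 and an SE of 1.91. That SE draws on all 5 groups, and the replicates were far apart in groups not compared. Its probe read -6.35 and -1.67 in the E11.5 progenitors and -1.30 and -6.85 in the 19-day culture. Myod1, the muscle determination factor, rose only 1.75-fold, at 2.12 and 2.43 in the 8-day culture and 1.47 and 1.47 in the P0 non-progenitors, and Acta1 was not called. In the E11.5 progenitors Myl1 read -6.26 and -6.23 and Actc1 -3.84 and -4.07, and in the 19-day culture Actc1 read -6.61 and -6.59. The count of 7 was 2 without 8-day replicate 2, 3 without P0 non-progenitor replicate 1 and 2 without P0 non-progenitor replicate 2. Myl1 lost its call whichever of the 4 was left out, Tnnc2 and Myod1 without each of those 3, and Actc1 and Des kept theirs.

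Lists of other lineages each held some calls, where 13.2% of all genes tested were called. Of 10 neural and glial genes, Ngfr and Elavl4 rose, and the rise of Elavl4 was 0.55 ± 0.14 and turned to -0.04 under quantile normalization. Of 11 cartilage and bone genes, Col2a1 rose 4.94-fold and Matn1, a cartilage matrix protein, at least 15.3-fold, while Sox9 and Acan were not called. Of 11 adipocyte and lipid storage genes, Fabp4, Cd36 and Lpl fell and Scd1 rose. Matn1 lost its call whichever of the 4 arrays was left out, Elavl4 and Lpl without 3 of them, and Col2a1 and Fabp4 without P0 non-progenitor replicate 1.

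Genes of glycolysis and the response to low oxygen rose as a block. Glycolysis turns glucose to pyruvate, lactate dehydrogenase turns pyruvate to lactate, and hypoxia-inducible factors, which bind the core letters ACGTG or GCGTG, raise many of these genes when oxygen is short. Of 22 genes, all tested, 18 rose and none fell, and the other 4 (Aldoc, Vegfa, Adm and Egln3) had positive changes that did not pass. The median was 1.66, against 0.247 over all genes tested. With any one of the 4 arrays left out, 13 to 17 genes were called higher. Quantile normalization called 15, and a test for at least 1 log2 unit 6. Ankrd37, an ankyrin repeat protein induced by low oxygen, read 0.549 and 0.363 in the 8-day culture and -5.48 and -3.27 in the P0 non-progenitors (28.5-fold, adjusted p = 0.0171). Its probe passed the background test on 1 P0 non-progenitor array, and the call was lost without either 8-day replicate or P0 non-progenitor replicate 1.

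The promoters of the 4 genes of this list with the largest change are shown, with the letters that hypoxia-inducible factors bind marked. They were chosen by the change and not by these letters. The windows run from 250 bases before to 50 after the gene's start, 300 bases in all, from RefSeq on GRCm38.p6. Capitals mark ACGTG or GCGTG on either strand. Where matches overlap, the capitals run together. The windows are Ankrd37 at chr8:45999801-46000100 (minus strand), Hk2 at chr6:82774405-82774704 (minus), Car9 at chr4:43506776-43507075 (plus) and Pfkl at chr10:78009758-78010057 (minus).
Ankrd37: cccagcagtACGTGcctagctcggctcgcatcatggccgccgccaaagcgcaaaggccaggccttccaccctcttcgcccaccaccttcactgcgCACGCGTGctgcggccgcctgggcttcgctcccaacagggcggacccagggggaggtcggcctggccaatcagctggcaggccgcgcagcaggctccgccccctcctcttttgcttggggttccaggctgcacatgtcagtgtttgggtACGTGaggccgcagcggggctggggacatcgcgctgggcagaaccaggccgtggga
Hk2: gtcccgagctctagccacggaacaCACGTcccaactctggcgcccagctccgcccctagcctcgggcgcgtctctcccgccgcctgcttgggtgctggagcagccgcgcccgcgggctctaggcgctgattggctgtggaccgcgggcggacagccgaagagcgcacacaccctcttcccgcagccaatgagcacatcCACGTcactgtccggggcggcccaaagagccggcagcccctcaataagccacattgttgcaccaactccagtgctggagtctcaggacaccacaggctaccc
Car9: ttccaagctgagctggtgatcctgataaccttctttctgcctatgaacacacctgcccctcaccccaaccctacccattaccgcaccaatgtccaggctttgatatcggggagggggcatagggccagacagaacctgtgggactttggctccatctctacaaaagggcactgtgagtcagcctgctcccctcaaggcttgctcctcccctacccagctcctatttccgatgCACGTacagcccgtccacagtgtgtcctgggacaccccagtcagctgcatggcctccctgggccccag
Pfkl: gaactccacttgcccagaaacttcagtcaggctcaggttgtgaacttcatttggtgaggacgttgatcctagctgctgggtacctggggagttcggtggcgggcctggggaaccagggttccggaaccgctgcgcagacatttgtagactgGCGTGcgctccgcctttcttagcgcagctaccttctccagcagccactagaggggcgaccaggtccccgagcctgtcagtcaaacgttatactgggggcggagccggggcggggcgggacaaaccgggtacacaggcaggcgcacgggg
The Ankrd37 window holds 4 matches, that of Hk2 2, and those of Car9 and Pfkl 1 each. At least 1 match was found for 20 of the 22 genes and in 25 of their 32 windows (78.1%), against 43.8% of all 32851 promoter windows. The list's windows were also richer in G and C, with a mean of 61.0% against 53.8% over all windows, and in CG dinucleotides (17.3 against 12.4 a window), which both motifs contain. A match is a description of the letters and shows no binding.

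Along the pathway, the glucose transporter Slc2a1 had levels of 4.74 and 4.49 in the 8-day culture and 2.80 and 2.41 in the P0 non-progenitors, a 4.02-fold rise. Hk2, which phosphorylates glucose, read 3.00 and 2.44 in the 8-day culture and -0.570 and -1.22 in the P0 non-progenitors and rose 12.2-fold (adjusted p = 0.00239). Pfkl, the liver form of the committed kinase step, rose 5.30-fold. The kinase Pgk1 read 7.09 and 7.35 in the 8-day culture and 4.89 and 4.86 in the P0 non-progenitors, a 5.07-fold rise with little spread (SE 0.12 on the log2 scale, adjusted p = 0.000114). Ldha rose 3.13-fold and Gapdh 2.38-fold. Car9, a carbonic anhydrase of the cell surface, read 2.21 and 1.75 in the 8-day culture and -0.394 and -0.577 in the P0 non-progenitors, a 5.52-fold rise that lost its call without P0 non-progenitor replicate 2. Between Slc2a1 and Ldha, Aldoc was the sole gene of the list that did not pass. The groups did not overlap at any of the 22 genes, as at 57.1% of all genes tested.

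**Figure D4:**
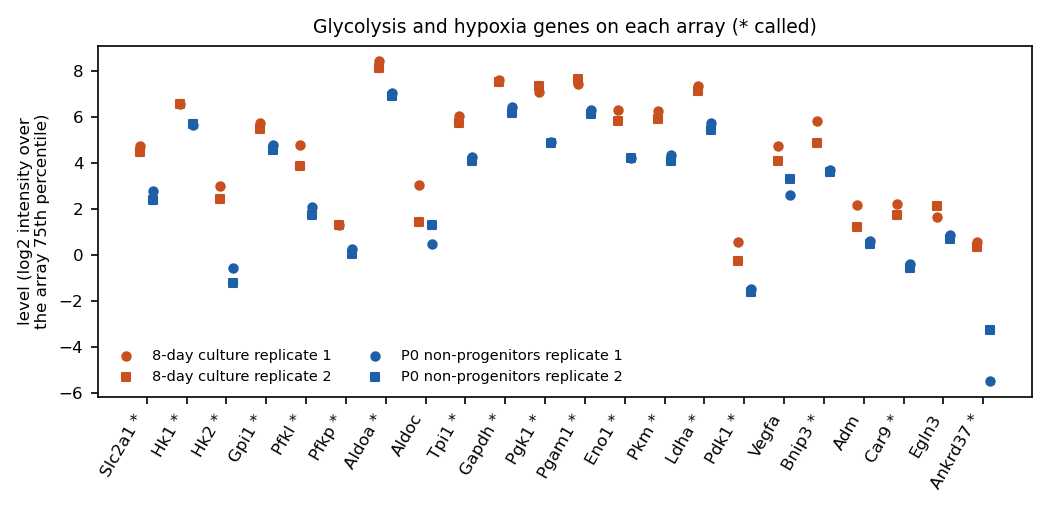
Levels of the 22 glycolysis and hypoxia genes (log2 intensity over the array's 75th percentile, vertical axis) on each 8-day array (orange) and each P0 non-progenitor array (blue), with an asterisk at the 18 genes called higher. The orange points lie above the blue ones at all 22 genes.

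The respiratory chain did not follow. Of 19 genes on this list, none rose and 4 fell (median -0.399), and 1 of the 4, Ppargc1a, is a regulator and no chain subunit. Ppargc1a, a coactivator that drives mitochondrial gene expression, read -6.27 and -5.40 in the 8-day culture, not well above background, and 1.99 and 2.63 in the P0 non-progenitors, and was at least 101-fold lower (adjusted p = 0.000196). The other falls were small, with Sdha 1.83-fold, Cox5a 1.67-fold and Atp5b 1.41-fold lower, and 15 members were lower under quantile normalization. The count of 4 was 1 without 8-day replicate 1, and 1 without either P0 non-progenitor replicate, and Ppargc1a alone kept its call whichever of the 4 arrays was left out. Cholesterol synthesis genes rose in part, with 7 of 21 higher, none lower and a median of 0.880. Insig1, which holds back sterol synthesis, rose 5.24-fold, at 1.06 and -0.380 in the 8-day culture and -2.09 and -2.01 in the P0 non-progenitors. Cyp51 rose 2.79-fold and Fdps 2.39-fold. The count was 4 without either 8-day replicate and 3 without either P0 non-progenitor replicate. Cyp51 lost its call whichever array was left out, and Insig1 and Fdps without 3 of the 4.

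Of 18 genes of the amino acid and ER stress response, 4 rose and none fell. Trib3, a pseudokinase of that response whose probe passed the background test on 1 P0 non-progenitor array, read 2.333 and 1.098 in the 8-day culture and -3.48 and -5.34 in the P0 non-progenitors and rose 69.9-fold. Asns, which makes asparagine, rose 5.08-fold, Slc7a5, an amino acid carrier, 5.53-fold and Psat1, of serine synthesis, 3.26-fold. The count was 2 without either 8-day replicate and 1 without either P0 non-progenitor replicate, and each of the 4 genes lost its call without 2 or 3 of the arrays. No xenobiotic or glutathione gene passed in limma among 13 tested, and 1 was higher at an unadjusted p under 0.05.

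Growth gene counts are to be read against all genes tested, of which 7.64% were higher and 5.51% lower. Counts near these shares are no result about growth genes. Of 23 genes of DNA replication and the G1/S step, 2 rose (Mcm4 1.96-fold and Mcm6 2.05-fold, both of the replicative helicase) with a median of 0.589. None of 22 genes of mitosis passed in limma, at a median of 0.443, and 4 were higher at an unadjusted p under 0.05. The log2 change was 0.21 ± 0.27 for Mki67, a marker of dividing cells, and 1.13 ± 0.35 for the topoisomerase Top2a. Of 18 Cdk inhibitors and p53 targets, Perp, an adhesion protein, fell 194-fold, while Mdm2 and Trp53inp1 rose 2.08-fold and 2.52-fold. Mdm2 lost its call whichever of the 4 arrays was left out, and Trp53inp1 without P0 non-progenitor replicate 1. Cytosolic ribosomal protein genes rose almost without exception, 73 of 76, but by a median of only 0.829. In the tenth of genes with the highest level, 1058 of 2626 were higher, with a median of 0.458. Under quantile normalization 22 rose with a median of 0.289, and none passed a test for at least 1 log2 unit.

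Fetal growth genes rose in part, with 6 of 18 higher and none lower. Hmga2, a chromatin protein of fetal cells, read 2.46 and 3.07 in the 8-day culture and -0.660 and -0.265 in the P0 non-progenitors (9.38-fold, adjusted p = 0.000445). Grb10 rose 3.12-fold, Igf2bp2 2.92-fold and Igf2 2.53-fold. The count was 2 to 4 with any one of the 4 arrays left out. In the IGF system, Igf1 fell 9.23-fold and the binding protein Igfbp7 7.15-fold, and Igfbp6 was at least 8.75-fold lower, while Igf2, its receptor Igf2r and Igfbp2 rose. Igf2bp2 and Igf2r lost their call whichever of the 4 arrays was left out, and Igf2, Igfbp2 and Igfbp6 without 2 of them.

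Hox genes, whose position in each cluster mirrors their domain along the body axis, were called in both directions. Of 8 Hoxb genes tested, 4 fell and none rose (median -3.63). Hoxb6 was not well above background in the 8-day culture, at -5.12 and -4.97, and read 2.44 and 2.60 in the P0 non-progenitors, at least 117-fold lower (adjusted p = 0.005). The E11.5 progenitors read 1.96 and 1.98 for Hoxb6. Hoxb8 was at least 9.95-fold lower, Hoxb9 fell 13.3-fold and Hoxb5 8.38-fold. Of 7 Hoxc genes, 4 rose and none fell (median 1.52), with Hoxc6 at 3.13 and 2.97 in the 8-day culture and 0.975 and 0.619 in the P0 non-progenitors (4.76-fold, adjusted p = 0.000869). In the Hoxd cluster, Hoxd8 and Hoxd9 fell 3.78-fold and 2.74-fold, while Hoxd12 and Hoxd13 rose 17.1-fold and 10.9-fold. Hoxd12 read 1.98 and 0.884 in the 8-day culture and -2.97 and -2.35 in the P0 non-progenitors. Hoxd11, a regulator of kidney patterning, did not pass at 0.53 ± 0.45, and Hoxa11, which acts with it, rose 3.13-fold. Hoxb8 lost its call whichever of the 4 arrays was left out, Hoxb5 and Hoxd9 without 3 of them, Hoxb9 without P0 non-progenitor replicate 1, and Hoxa11 without that array or 8-day replicate 1.

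**Figure D5:**
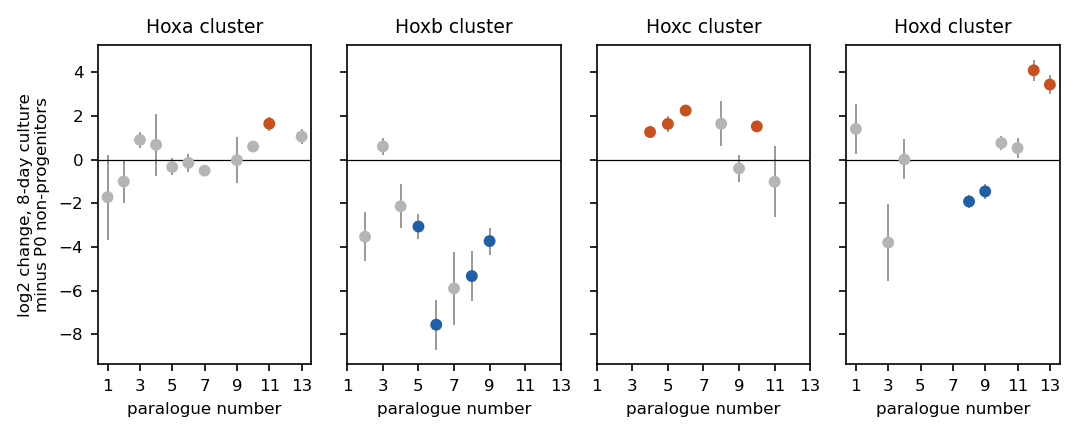
Log2 change between the 8-day culture and the P0 non-progenitors (vertical axis, with SE bars) for the tested Hox genes of each cluster by paralogue number (horizontal axis). Called genes are orange (higher) or blue (lower), with 4 Hoxb genes lower, 4 Hoxc genes higher, and Hoxd12 and Hoxd13 higher beside lower Hoxd8 and Hoxd9.

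FGF signals keep nephron progenitors alive, and their ERK branch induces its own inhibitors and the Etv factors. Of 17 FGF and ERK feedback genes, 8 rose and 1 fell (median 1.08). Over all genes tested 7.64% were higher and 5.51% lower, and a pathway count near these shares is no result about its list. Etv4 read 4.18 and 3.69 in the 8-day culture and 1.65 and 2.09 in the P0 non-progenitors (4.18-fold, adjusted p = 0.0156), and Etv1 rose 4.13-fold. Il17rd, a feedback inhibitor, rose 3.67-fold and the ERK phosphatase Dusp6 3.35-fold. Fgfr4 fell 5.26-fold. The count of 8 was 5 without 8-day replicate 1 and 2 without P0 non-progenitor replicate 1, and Etv4, Etv1, Il17rd and Fgfr4 each lost their call without 2 or 3 of the 4 arrays. Of 19 Notch pathway genes, 7 fell and none rose. Heyl, a target, was at least 36.5-fold lower, the receptor Notch4, of endothelium, at least 31.2-fold, and the target Nrarp fell 15.6-fold. Of 26 Wnt genes, 5 fell and 1 rose. Sfrp1, a secreted inhibitor, fell 21.4-fold, and Wnt9b and Wnt7b, both ligands of the ureteric epithelium, 19.8-fold and 9.89-fold, beside Fzd1 and Lgr4. The receptor Fzd2 read 5.40 and 5.28 in the 8-day culture and 1.99 and 1.70 in the P0 non-progenitors, an 11.2-fold rise (adjusted p = 7.42e-05).

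Of 24 BMP and TGF-beta genes, 5 fell and 2 rose, with 2 falls without P0 non-progenitor replicate 1 and 3 without 8-day replicate 2, and no rise without 8-day replicate 1 or either P0 non-progenitor replicate and 1 without 8-day replicate 2. The rises are near the share of all genes tested that were higher, 7.64%, where 5.51% were lower. Ltbp1, which stores latent TGF-beta, read 0.50 and 0.721 in the 8-day culture and 3.98 and 4.43 in the P0 non-progenitors and fell 12.1-fold. Id4 fell 35.3-fold, and Bmper, which binds BMPs, was at least 6.30-fold lower. Tgfbi rose 15.1-fold with an SE of 0.93, and lost its call whichever of the 4 arrays was left out. Bmper lost it without P0 non-progenitor replicate 1. Of 16 retinoic acid genes, 5 fell and 3 rose, with 2 falls without P0 non-progenitor replicate 1 and 3 without replicate 2. Dhrs3, a retinal reductase, fell 176-fold and Cyp26b1, which degrades retinoic acid, 14.7-fold, while Crabp2, a binding protein, rose 3.89-fold beside Aldh1a2. Of 15 genes of the LIF and STAT3 axis, Bcl3, Socs3 (5.53-fold, the feedback inhibitor) and Stat3 (2.35-fold) rose, and the receptor Il6ra was at least 5.49-fold lower. Il6ra lost its call without 3 of the 4 arrays, Stat3 without 2 and Socs3 without P0 non-progenitor replicate 2.

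Of 21 collagen genes, 9 fell and 2 rose (median -1.62), where 5.51% of all genes tested were lower and 7.64% higher. Col18a1 read -2.34 and -2.11 in the 8-day culture and 1.92 and 1.91 in the P0 non-progenitors and fell 17.7-fold (adjusted p = 0.00341). Col6a2 read -0.772 and -0.698 in the 8-day culture and 2.72 and 3.20 in the P0 non-progenitors, Col15a1 was at least 15.9-fold lower, and Col1a1 and Col4a1 fell 3.04-fold and 4.63-fold. The falls numbered 5 without P0 non-progenitor replicate 1 and 4 without replicate 2. Elastin (Eln) was at least 86.5-fold lower. Some enzymes that modify collagen were higher, with P4ha1, a prolyl hydroxylase, at least 18.9-fold higher, Lox, a cross-linking oxidase, 6.73-fold and Plod2, a lysyl hydroxylase, 4.42-fold. Plod2 read 3.14 and 2.59 in the 8-day culture and 0.810 and 0.628 in the P0 non-progenitors. Lox and Col1a1 lost their call whichever of the 4 arrays was left out, and P4ha1 and Col15a1 without 3 of them.

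Proteases were uneven between the cultures. Mmp9, a gelatinase, read 3.55 and -0.961 in the 8-day culture and was at least 92.9-fold higher, and Mmp10, a stromelysin, read 2.02 and -0.627 and was at least 64.9-fold higher. Neither was well above background in the P0 non-progenitors. Plau, the urokinase, fell by 5.67 on the log2 scale, at -0.542 and 0.0341 in the 8-day culture and 5.46 and 5.38 in the P0 non-progenitors, and the inhibitor Timp3 fell 40.8-fold while Timp1 rose by 3.46 ± 0.84 on the log2 scale. Timp1 lost its call whichever of the 4 arrays was left out, Timp3 without 3 of them, Mmp9 without either P0 non-progenitor replicate and Mmp10 without P0 non-progenitor replicate 2. Of 22 integrin and laminin genes 6 fell and none rose, with Lama1 at 44.6-fold. Of 18 YAP and SRF targets 7 fell and 1 rose. Myl9, a light chain of smooth muscle myosin, fell 49.8-fold, Ccn1, a matrix signalling protein, 16.6-fold and Acta2, the smooth muscle actin, by 4.08 on the log2 scale, whereas Tpm2 rose 3.12-fold. Myl9 lost its call without P0 non-progenitor replicate 1, and the count of 7 was 3 to 5 with any one array left out.

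Of 16 immediate early and stress genes, 6 fell and none rose. Fosb read -0.905 and -0.410 in the 8-day culture and 5.70 and 5.54 in the P0 non-progenitors, a 77.5-fold fall (adjusted p = 0.00315). The chaperone Hspa1a was at least 58.7-fold lower, Fos fell 16.3-fold and Jun 11.3-fold. The number of falls ran from 3 without either P0 non-progenitor replicate to 8 without 8-day replicate 1, and Fos lost its call without either P0 non-progenitor replicate. No interferon response gene passed in limma among 25 tested, and at an unadjusted p under 0.05 1 was higher and 1 lower. Rsad2, an antiviral enzyme, read 1.40 and -2.98 in the 8-day culture and 3.88 and 3.49 in the P0 non-progenitors. Of 17 chemokine and acute phase genes, Cxcl5, a neutrophil attractant, had the largest rise, at 6.41 and 2.13 in the 8-day culture and -4.99 and -3.08 in the P0 non-progenitors (log2 change 8.30 ± 1.65, adjusted p = 0.0158). Its probe passed the background test on 1 P0 non-progenitor array, and the call was lost without 8-day replicate 1 or either P0 non-progenitor replicate. Il33, an alarmin, rose 9.84-fold on both 8-day arrays. Cxcl12, a stromal chemokine, read 2.19 and 2.65 in the 8-day culture and 5.92 and 5.73 in the P0 non-progenitors and fell 10.6-fold.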

How the data were processed

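RNA was measured on single-colour Agilent arrays, 2 arrays in each of 5 groups. Per the file headers, the authors deposited scanner output of Agilent Feature Extraction 11.5.1.1 with processed intensity values that are background-subtracted and not normalized between arrays. No further processing is given in the sources used here. From these, log2 of the processed intensity was taken relative to each array's 75th percentile, control spots were left out and outlier spots were set missing. Each gene's brightest probe on average stood for it, and genes lacking a group whose 2 arrays both passed the background test were not tested. All 10 arrays entered a fit of group means in limma 3.58.1 (R 4.3.3) with an intensity trend, and the contrast of the 8-day culture minus the P0 non-progenitors was adjusted by Benjamini-Hochberg over all genes tested, with a threshold of 0.05. The fit was unpaired. The steps were tested on simulated data.

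The arrays compared, the gene lists and the tests were chosen with earlier results of these data known. Named genes are the 12 largest rises and falls well above background on all 4 arrays, the 6 highest bounds each way, in each list up to 4 called members with the largest change and 2 that were not called, and a set of core progenitor factors. Others were named after their values were seen, among them Meox1, Hey1, Sox11, Aldh1a2, Meis1, Fzd1, Lgr4, the Hox genes other than the list leaders, Dusp6, Crabp2, Plod2, Pgk1, Ldha, Gapdh, Slc2a1, Myod1, Myh3, Acta1, Igf2r, Timp1, Tpm2, Il33, Rsad2, Ddx3y and Eif2s3y. The 16 alternatives cover scaling, background, filter, probe choice, trend, blocks, subsets of arrays and each of the 4 arrays left out, and the one without the 19-day culture was chosen after the data were seen. Where an array left out leaves 1 in a group, that array is assumed to vary like the other groups. Promoter sequence is from RefSeq. Results for some genes are not reported here.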

Additional observations from a re-analysis of the deposited data

How the results depend on the processing

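The count of genes higher in the 8-day culture, 2007 as reported, was 1106 under quantile normalization, 1279 with no intensity trend, 1298 with the slide as a block, 1100 with only the 4 arrays compared and 110 for a change of at least 1 log2 unit. Only the 8-day culture had arrays on both slides, so the slide block in effect compares 8-day replicate 1 with the P0 non-progenitors. It is therefore no check separate from leaving out 8-day replicate 2. The count of genes lower, 1447 as reported, was 645 among genes above background on all arrays, which removes by construction the genes at background in culture. It was 581 for a change of at least 1 log2 unit. Leaving out each of the 4 arrays gave 1089 to 1664 genes higher and 776 to 1101 lower. With the replicate number as a block, 1866 genes were higher and 1359 lower. The correlation across genes of the deviations of same-numbered arrays was 0.0113 between the 2 groups compared and ran from -0.0137 to 0.0285 over all 10 pairs of groups, none over 0.1, so the block is given here only. Other alternatives stayed within 1.5 times. Over 291 named genes, 1 reversed under each of 2 settings. The Csf1r log2 change was -1.298 with the mean of its probes, which disagree, and the Elavl4 log2 change was -0.04207 under quantile normalization, where the cause was not tested. Between 43 and 62 of the named calls were lost when 1 array was left out, 74 for a change of at least 1 log2 unit, 43 with the slide block and 9 under quantile normalization. With 2 arrays a group, small changes of dim genes could not be resolved, and levels near background have no order.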

Other observations

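Transcript classes differed in their calls, where 7.64% of all genes tested were higher and 5.51% lower. Of 16120 protein-coding genes tested, 900 were higher and 1285 lower in the 8-day culture, whereas of 8874 array names with no RefSeq symbol 1000 were higher and 138 lower. Of 928 long noncoding RNAs, 42 were higher and 18 lower, both below those shares.

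Of 10 UDP-glucuronosyltransferases (Ugt), which conjugate drugs and steroids, 7 were lower in the 8-day culture and none higher, where 5.51% of all genes tested were lower. The number lower was 4 without 8-day replicate 2 or P0 non-progenitor replicate 2. Mitochondrial ribosomal proteins (Mrp) had 1 of 75 lower and none higher.

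The 2 P0 non-progenitor arrays differed in genes of the Y chromosome. Ddx3y read 0.558 and 0.527 in the 8-day culture and 0.0267 and -6.78 in the P0 non-progenitors, and Eif2s3y read -2.50 and -1.34 in the 8-day culture and -1.49 and -6.92 in the P0 non-progenitors. Both probes passed the background test on both 8-day arrays and on P0 non-progenitor replicate 1 alone of its group. Ddx3y read 0.0972 and -6.25 and Eif2s3y -2.59 and -6.39 in the P0 progenitors, where replicate 2 again held the low value. What these differences between replicates add to the spread of other genes was not tested.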
